A study of Homo sapiens with 4 samples.

Results

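MHC class I presentation was followed here through 9 genes of PC9 lung adenocarcinoma cells. These were the heavy chains HLA-B, HLA-C and HLA-E, the light chain B2M, the peptide transporter subunits TAP1 and TAP2, the loading factor TAPBP, and the inducible proteasome subunits PSMB8 and PSMB9. They were chosen by symbol from the 18134 genes of the deposited table, and all 9 were found there and passed the low-count filter along with 14048 genes in all. PC9 is an established line of human lung adenocarcinoma, an epithelial cancer. The shTPX2 group carried a lentiviral short hairpin against TPX2, a spindle assembly factor, and the shNC group carried a negative-control hairpin in the same way. Both groups were antibiotic-selected stable lines grown in DMEM with serum, from a pLKO.1 vector with puromycin resistance, and a single hairpin stood for the knockdown. Poly(A) RNA gave 2 libraries per group, 4 in all, and the labels place them in a single batch without saying whether they came from separate cultures. The p-values below therefore measure only the spread between these libraries, which may be technical.

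Class I molecules carry peptides from inside the cell to its surface, where CD8 T cells and natural killer cells inspect them. The proteasome cuts proteins into peptides, TAP1 and TAP2 pump the peptides into the endoplasmic reticulum, TAPBP (tapasin) holds the empty class I molecule beside the pump, and the heavy chain leaves for the surface only once it is paired with B2M and loaded. Interferon-gamma raises nearly all of these genes, and in the immunoproteasome the subunits PSMB8 and PSMB9 take the places of PSMB5 and PSMB6. Loss of class I genes is a known route by which lung tumours escape T cells.

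The expected-count totals were 20906441 to 21972583 per library, so depth was nearly even. TPX2, the targeted gene, measured 55.01 TPM (a level relative to transcript length and to the library's total) in shNC 1, 112 TPM in shNC 2, and 43.4 and 43.8 TPM in the libraries shTPX2 1 and 2. The log2 difference was −0.81 (standard error 0.32), with an unadjusted p of 0.0403 and an adjusted p of 0.618 in edgeR's quasi-likelihood test. Over all genes, 4.9% were lower at an unadjusted p under 0.05 in that test. The unadjusted p of TPX2 was 0.0592 in limma voom and 0.0152 in DESeq2. The TPX2 difference shrank to −0.25 without shNC 2 and was −1.22 without shNC 1. Epithelial markers summed to 20378 to 27928 TPM, led by the keratins KRT8 and KRT18, whereas the lung lineage factor NKX2-1 lay at 0.04 to 1.55 TPM. Leukocyte markers, 13 of 14 listed, summed to 18.9 TPM (shTPX2 1), 22.05 TPM (shNC 1), 27.8 TPM (shTPX2 2) and 43.4 TPM (shNC 2). CD14 gave most of that spread (6.40, 7.52, 14.2 and 27.3 TPM in shNC 1, shTPX2 1, shTPX2 2 and shNC 2), 7 of the 13 stayed under 1 TPM in every library, and PTPRC, which nearly all leukocytes express, lay between 0.28 and 0.69 TPM.

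The members lie close together in the genome. On chromosome 6 the span from HLA-E to TAPBP, chr6:30489509-33314078 in GRCh38.p14, holds 8 of the 9, and B2M lies on chromosome 15 at chr15:44711517-44718145 on the plus strand. HLA-B occupies chr6:31353875-31357179 and HLA-C chr6:31268749-31272092, both on the minus strand, and HLA-E chr6:30489509-30494194 on the plus strand. TAP2 (chr6:32821831-32838739), PSMB8 (chr6:32840717-32844679) and TAP1 (chr6:32845209-32853704) follow each other on the minus strand, with PSMB9 (chr6:32854192-32859851) facing TAP1 on the plus strand and TAPBP (chr6:33299694-33314078) further on. Of all 100-base words in the GENCODE v29 coding transcripts of a gene, 0% were shared with other genes for HLA-B, B2M, TAP1, TAPBP and PSMB8, 0.23% for HLA-C, 0.6% for HLA-E, 4.68% for PSMB9 and 31.9% for TAP2. The TAP2 words were shared with AL669918.1, a transcript on the same strand that overlaps TAP2. GENCODE models reach further than the RefSeq spans above, so that HLA-B overlaps HLA-C on the same strand, and PSMB9 and the antisense gene PSMB8-AS1 overlap TAP1 and PSMB8 on the opposite strand. The values of HLA-B, HLA-C and TAP2 are less certain for this reason. Those of TAP1, PSMB8 and PSMB9 are less certain where the authors' counting did not use strand. The deposited counts of PSMB8 and PSMB9 were whole numbers in all 4 libraries, and those of the other members were not whole in any library. The HLA genes are the most variable human genes between individuals, and the effect of the alleles PC9 carries on their values was not tested.

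The sequence before the start of the genes is shown for 3 members that varied together between the libraries, HLA-B, HLA-C and B2M, and for PSMB8. PSMB8 was also higher in library 2 of both groups, but was highest in shTPX2 2 and not in shNC 2. The letters are the RefSeq reference of GRCh38.p14 and not the alleles of PC9, they stop before the first annotated base of the gene, and all read 5′ to 3′ on the strand of the gene. Capitals mark the interferon-stimulated response element core (GAAA, any 2 bases, GAAA), a shorter core GAANNGAAA for interferon regulatory factors, and the CCAAT box, each on either strand, so that CCAAT also appears as ATTGG and the shorter core as its reverse complement.
HLA-B (chr6:31357189-31357429, minus strand): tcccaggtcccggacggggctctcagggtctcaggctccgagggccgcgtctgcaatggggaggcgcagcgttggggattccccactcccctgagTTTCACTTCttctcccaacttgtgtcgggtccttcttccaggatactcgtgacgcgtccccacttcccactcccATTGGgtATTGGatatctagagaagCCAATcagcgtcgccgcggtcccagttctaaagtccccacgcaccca
HLA-C (chr6:31272131-31272342, minus strand): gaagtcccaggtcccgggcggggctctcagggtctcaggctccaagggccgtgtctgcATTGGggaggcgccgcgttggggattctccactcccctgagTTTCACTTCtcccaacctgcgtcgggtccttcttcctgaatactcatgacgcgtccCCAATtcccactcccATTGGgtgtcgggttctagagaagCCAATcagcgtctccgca
B2M (chr15:44711267-44711486, plus strand): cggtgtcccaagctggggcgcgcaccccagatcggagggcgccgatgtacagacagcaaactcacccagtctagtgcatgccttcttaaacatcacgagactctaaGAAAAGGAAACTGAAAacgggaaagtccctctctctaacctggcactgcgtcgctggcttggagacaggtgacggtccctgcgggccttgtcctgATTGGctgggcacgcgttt
PSMB8 (chr6:32844704-32844929, minus strand): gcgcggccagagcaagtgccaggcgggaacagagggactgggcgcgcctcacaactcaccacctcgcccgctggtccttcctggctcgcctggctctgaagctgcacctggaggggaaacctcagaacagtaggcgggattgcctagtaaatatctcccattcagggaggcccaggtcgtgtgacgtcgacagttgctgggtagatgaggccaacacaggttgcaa

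HLA-B and HLA-C each held 1 short interferon regulatory factor core, with the same letters in both, and several CCAAT boxes. B2M held 2 overlapping copies of the longer core and 1 CCAAT box, and the PSMB8 stretch held none of these motifs. In the 250 bases before the start, windows of 8 members were searched, all except HLA-E. The longer core was found in 4 of the 8 (B2M, TAP1, TAP2 and TAPBP) and in 3.07% of 27305 promoters of that length. The CCAAT box was found in 5 of the 8 and in 33% of promoters, and the short core in HLA-B, HLA-C and TAP2 against 6.77%. An NF-kB motif was found in 5 of the 8 against 5.05%, and the gamma-activated site TTCNNNGAA in 0 of the 8 against 6.78%. The motifs are letter matches only, and the cores overlap in part. Of the members with the longer core, B2M and TAP1 were higher in shTPX2 2 than in shTPX2 1, and TAP2 and TAPBP were lower. All 4 were higher in shNC 2 than in shNC 1, as were the other members. A link between motifs and expression was not tested.

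For the heavy chains and B2M, both libraries numbered 2 lay above both libraries numbered 1, an order whose share over all genes was not counted. HLA-B, which presents peptides to CD8 T cells, measured 72.9 TPM in the library shNC 1 and 433 TPM in shNC 2, while shTPX2 1 held 64.96 TPM and shTPX2 2 held 124 TPM. One control library was the highest and the other stood close to the lowest, and the groups overlapped. In RNA from whole cultures, fewer cells that express a gene cannot be told apart from less RNA per cell. The group means were 253 ± 255 TPM for shNC and 94.6 ± 41.95 TPM for shTPX2 (SD, n = 2 each). On the log2 scale the difference was −1.29 (standard error 0.74, 95% interval −3.08 to 0.51), with an edgeR adjusted p of 0.717.

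HLA-C, a classical heavy chain that also engages killer-cell receptors, measured 484 and 919 TPM in shNC 1 and 2 and 445 and 756 TPM in shTPX2 1 and 2. HLA-E, a heavy chain of low diversity that binds the inhibitory receptor NKG2A, measured 163 and 304 TPM in the shNC libraries and 141 and 209 TPM in the shTPX2 libraries. In both genes each group held a low library and a high library, the shTPX2 1 library had the lowest TPM of the 4, and the groups overlapped. Their log2 fold changes were −0.10 (standard error 0.36, 95% interval −0.97 to 0.77) for HLA-C and −0.29 (standard error 0.33, 95% interval −1.07 to 0.49) for HLA-E.

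B2M, the light chain that every class I heavy chain needs, had the highest level of the members with 679.7 TPM in shNC 1, 1999 TPM in shNC 2, and 703 and 1299.7 TPM in the libraries shTPX2 1 and 2. The order of the libraries was shNC 2, shTPX2 2, shTPX2 1 and shNC 1, with the libraries numbered 1 almost level. The means were 1339 ± 933 TPM and 1001 ± 422 TPM (SD, n = 2 each), and the log2 fold change was −0.29 (standard error 0.51, 95% interval −1.52 to 0.93, adjusted p = 0.908 from edgeR).

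**Figure D1:**
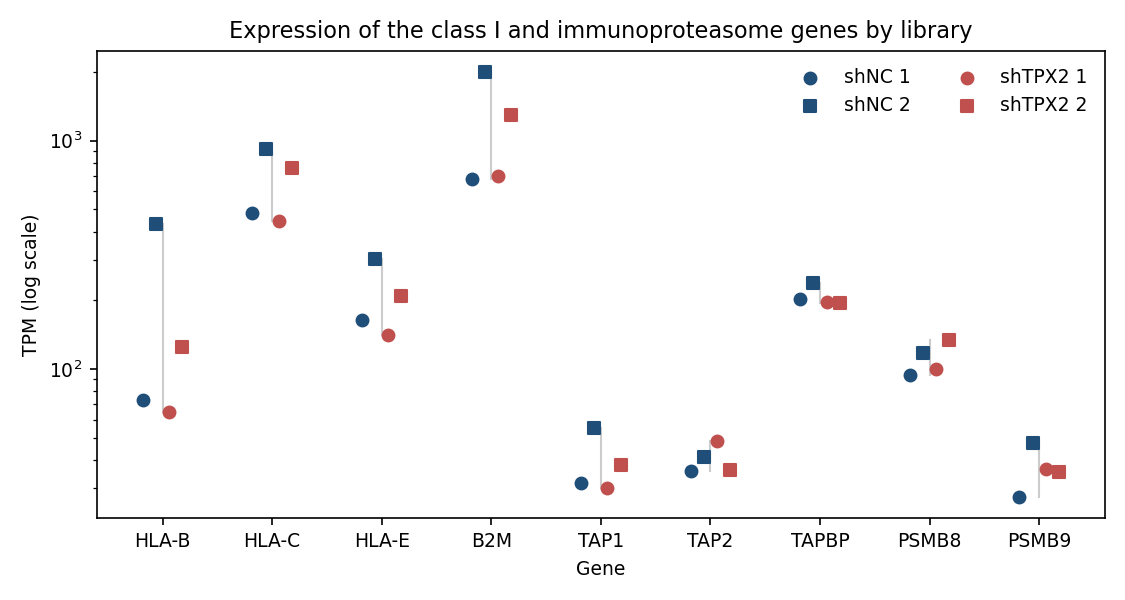
TPM (log axis) of each of the 9 genes in the 4 libraries, with shNC in blue, shTPX2 in red, circles for library 1 and squares for library 2; the grey line spans the lowest to the highest library. For HLA-B, HLA-C, HLA-E and B2M both squares lie above both circles, with HLA-B from 64.96 to 433 TPM, whereas TAP2 and TAPBP stay within a narrow range.

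The spread between libraries of the same group was then measured on the log2 CPM scale (counts scaled to library size with TMM factors). shNC 2 exceeded shNC 1 in all 9 members, by a median of 0.74, whereas the median over all 14048 genes was 0.00. The excess was 5.77-fold for HLA-B and 2.86-fold for B2M, so that 2 of the 9 reached 2-fold, compared to 5% of all genes. shTPX2 2 exceeded shTPX2 1 in 6 of the 9, namely HLA-B (1.86-fold), B2M (1.80-fold), HLA-C (1.65-fold), HLA-E (1.44-fold), PSMB8 (1.31-fold) and TAP1 (1.17-fold). None of the 9 reached 2-fold there (0 of 9, compared to 2.8% of all genes). These 6 genes were higher in library 2 of both groups, as were 27.7% of all genes. For HLA-B, HLA-C, HLA-E, B2M, TAP1 and PSMB8 both libraries numbered 2 lay above both libraries numbered 1. The share of all genes with this stricter order was not counted. The members were highest in shNC 2 in 7 of 9 genes, against 31% of all genes, and the exceptions were TAP2 and PSMB8.

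The neighbours of these genes on chromosome 6 differed less between the control libraries. The 93 other tested genes between HLA-E and TAPBP, leaving out class I heavy chains, had a median difference of 0.09 between shNC 2 and shNC 1, and 6 of them (6.45%) reached 2-fold. MHC class II genes, described below, were not left out. Of these, HLA-DRB1 was 2.82-fold, HLA-DQB1 4.28-fold and HLA-DOB 2.56-fold higher in shNC 2 than in shNC 1. The summed leukocyte markers put the libraries in the same order as HLA-B (shNC 2, shTPX2 2, shNC 1, shTPX2 1), with PTPRC under 1 TPM throughout, and the summed epithelial markers were lowest in shNC 2. Stromal and endothelial markers summed to 29.03 and 44.93 TPM in shNC 1 and 2 and 36.98 and 44.75 TPM in shTPX2 1 and 2. Of these 8 markers, 5 stayed under 1 TPM in every library. The sums had the order of B2M, in which shTPX2 1 lay above shNC 1, though the sums of shNC 2 and shTPX2 2 were almost level. The part of these markers in the result was not tested.

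**Figure D2:**
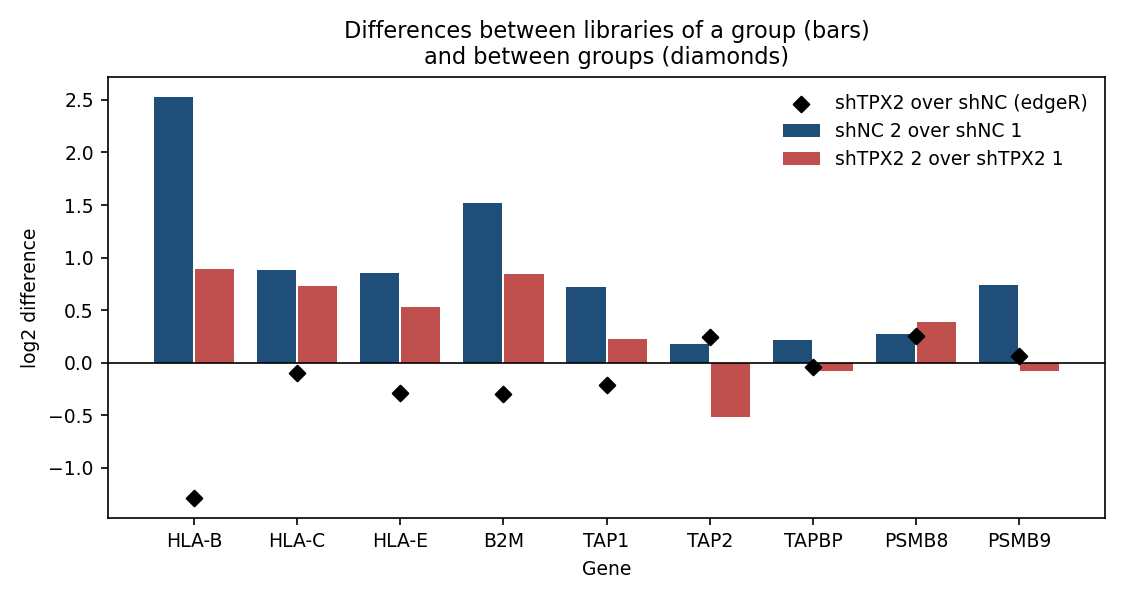
Log2 differences between libraries of the same group (bars: shNC 2 over shNC 1 in blue, shTPX2 2 over shTPX2 1 in red, log2 CPM) and between the groups (black diamonds, edgeR log2 fold change, shTPX2 over shNC) for the 9 genes. For HLA-B the blue bar reaches 2.53 while the diamond stands at −1.29.

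Transport and loading genes varied less. TAP1, a subunit of the peptide pump, measured 31.7 TPM in shNC 1, 55.2 TPM in shNC 2, and 30.2 and 38.2 TPM in the libraries shTPX2 1 and 2, again with the libraries numbered 2 on top. TAP2, its partner, measured 35.6 and 41.05 TPM in the shNC libraries and 48.4 and 36.1 TPM in the shTPX2 libraries. The highest TAP2 library was shTPX2 1, in which TAP1 had its lowest TPM, though on the log2 CPM scale TAP1 was lowest in shNC 1. The TPM of the subunits of the same pump did not keep a fixed ratio, with the TAP2 values less certain as given above. TAP1 over TAP2, as a ratio of TPM, was 0.89 and 1.35 in the libraries shNC 1 and 2, compared to 0.625 and 1.06 in shTPX2 1 and 2. TAPBP, the bridge between pump and heavy chain, was the steadiest member, with 203 and 238 TPM in the shNC libraries and 197 and 194 TPM in shTPX2. Its shTPX2 libraries lay below both controls in TPM, but on the log2 CPM scale the groups overlapped. The log2 fold changes were −0.21 for TAP1 (standard error 0.26, 95% interval −0.84 to 0.42), 0.24 for TAP2 (standard error 0.22, 95% interval −0.28 to 0.77) and −0.05 for TAPBP (standard error 0.18, 95% interval −0.48 to 0.39).

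The immunoproteasome subunits did not separate the groups either. PSMB8, the inducible chymotrypsin-like subunit, measured 94.2 TPM in shNC 1, 118 TPM in shNC 2, and 99.9 and 134 TPM in the libraries shTPX2 1 and 2. PSMB9, the inducible subunit beside it, measured 27.6 and 47.7 TPM in the shNC libraries and 36.4 and 35.5 TPM in the shTPX2 libraries. For PSMB9 both shTPX2 libraries fell between the controls, and for PSMB8 the groups interleaved. Their log2 fold changes were 0.26 (standard error 0.20, 95% interval −0.23 to 0.74) and 0.06 (standard error 0.29, 95% interval −0.63 to 0.75), and the sign for PSMB9 changed with normalization to library size only (−0.02).

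The constitutive subunits stood above their inducible counterparts in every library. PSMB5, the constitutive counterpart of PSMB8, measured 232 and 238 TPM in the shNC libraries against 265 and 284 TPM in shTPX2, and PSMB6, the counterpart of PSMB9, 210.1 and 201 TPM against 239.8 and 233 TPM. The PSMB8 over PSMB5 ratio of TPM was 0.405 and 0.495 in shNC 1 and 2 and 0.377 and 0.472 in shTPX2 1 and 2. PSMB9 over PSMB6 was 0.132 and 0.237 in the shNC libraries and 0.152 in both shTPX2 libraries. The third inducible subunit, PSMB10, over PSMB7 was 0.183 and 0.213 in shNC and 0.224 and 0.197 in shTPX2. All 3 ratios overlapped between the groups, and an exact permutation test of 2 against 2 libraries cannot give a p below 0.33.

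**Figure D3:**
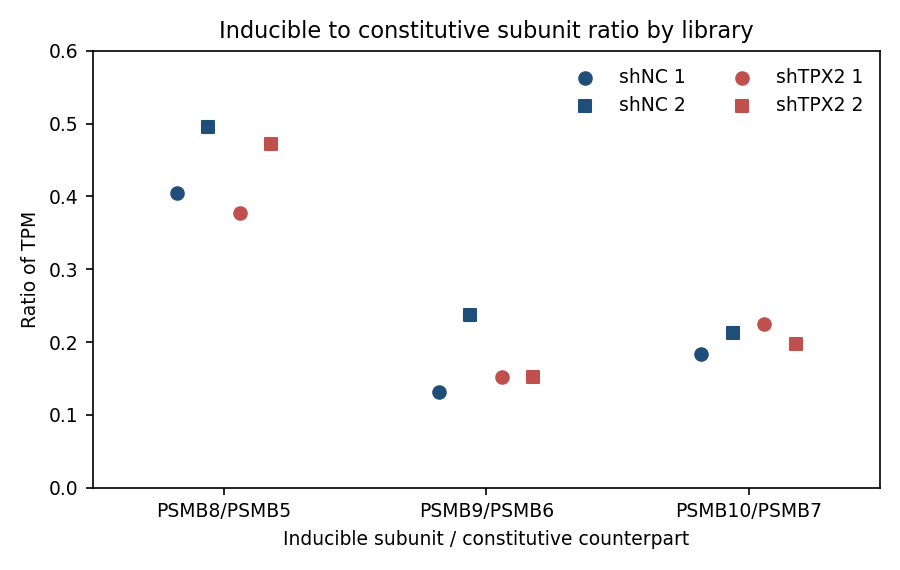
Ratio of the TPM of an inducible proteasome subunit to that of its constitutive counterpart in each library (shNC blue, shTPX2 red, circles library 1, squares library 2). PSMB8/PSMB5 lies between 0.377 and 0.495, the other ratios between 0.132 and 0.237, and the groups overlap in each.

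Among the other proteasome and activator genes, 10 of 11 listed were tested, and all 10 had a positive log2 fold change with a median of 0.33 (9 of 10 with upper quartile, library size, quantile or TPM scaling), whereas the median over all genes was −0.01 and 48.9% of genes were positive. At an unadjusted p under 0.05, 1 of the 10 was higher (3.13% of all genes), and 0 were lower. Without shTPX2 1 that count was 0. The gene was PSME2, a subunit of the interferon-inducible PA28 activator, with 320.3 and 414 TPM in the shNC libraries and 536 and 474 TPM in shTPX2 (log2 fold change 0.59, standard error 0.19, adjusted p = 0.579 from edgeR). Its partner PSME1 had a log2 fold change of 0.28, PSMB10 of 0.43, PSMB5 of 0.36, PSMB6 of 0.32 and PSMB7 of 0.33. At the study's own criteria (limma voom, unadjusted p up to 0.1 and an absolute log2 difference of 0.3 or more) 5 of the 10 were higher, compared to 6.24% of all genes. The median for these genes stayed between 0.26 and 0.41 with any 1 library left out.

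Across the 9 members the comparison of shTPX2 with shNC gave no call. At an adjusted p under 0.05 from edgeR 0 of 9 passed, as did 0% of all genes, and the adjusted p of the members ran from 0.717 (HLA-B) to 0.968 (PSMB9). At an unadjusted p under 0.05 it was 0 higher (3.13% of all genes) and 0 lower (4.9% of all genes), with a smallest unadjusted p of 0.131. Over all genes this was 440 higher and 688 lower, a split that moved to 288 and 874 with library size only. DESeq2 called 0 of 9 at an adjusted p under 0.05 (0.79% of all genes) and 0 at an unadjusted p under 0.05 (7.5%). At the study's criteria 0 of 9 were higher (6.24%) and 0 lower (7.99%). On the log2 CPM scale the groups overlapped in all 9 genes, whereas they did not overlap in 39.6% of all genes. The median log2 fold change was −0.10, with 3 positive and 6 negative. The 95% intervals were narrowest for TAPBP (−0.48 to 0.39) and widest for HLA-B (−3.08 to 0.51), so for HLA-B even a several-fold difference was not detectable with these libraries.

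**Figure D4:**
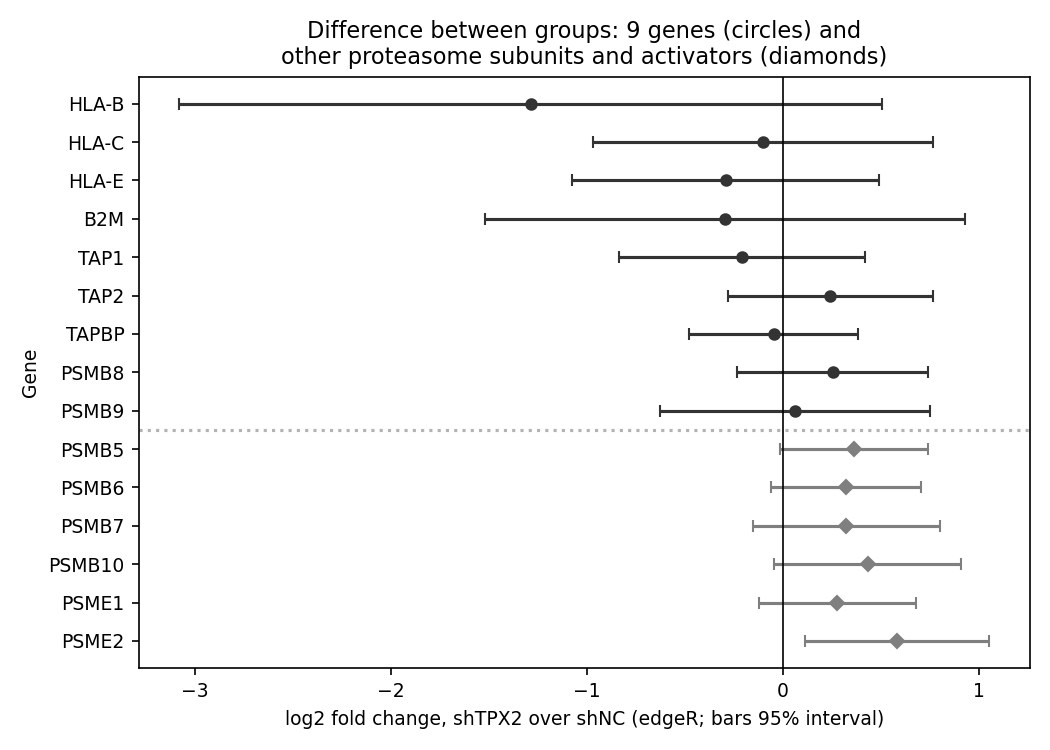
Log2 fold change of shTPX2 over shNC with its 95% interval from edgeR for the 9 genes (black circles) and for 6 other proteasome genes (grey diamonds). All 9 intervals of the members include 0, with HLA-B from −3.08 to 0.51, and the diamonds lie between 0.28 and 0.59.

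Single libraries turned the direction of most members. Without shNC 2 the log2 fold change became 0.47 for HLA-B, 0.40 for HLA-C, 0.20 for HLA-E, 0.65 for B2M, 0.19 for TAP1 and 0.06 for TAPBP. Without shNC 1 it was −2.05 for HLA-B (adjusted p = 0.0803 from edgeR, with the lone shNC library assumed to vary like the rest), −0.65 for HLA-E, −0.86 for B2M and −0.52 for TAP1, and these 4 then had an unadjusted p under 0.05 (4 of 9 lower, compared to 7.88% of all genes in that fit). The same 4 were lower at the study's criteria there, as were 13.2% of all genes. Without shTPX2 2, TAP2 (0.48) was the 1 of 9 higher at those criteria, against 3.61% of all genes. Without shTPX2 1 the values of HLA-C (0.22), B2M (0.07) and TAP2 (−0.04) changed sign. PSMB8 stayed positive with any library left out, from 0.05 to 0.44.

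HLA-F, a non-classical heavy chain, measured 7.39 and 33.8 TPM in the shNC libraries and 6.75 and 14.4 TPM in the shTPX2 libraries, with shNC 2 and then shTPX2 2 highest, as for HLA-B. HLA-G, normally a placental heavy chain, was low with 1.59 to 3.56 TPM. Their log2 fold changes were −0.92 and −0.38, and neither had an unadjusted p under 0.05. Of 14 class I-like molecules 12 were tested, with a median of −0.46, and 10 were negative. FCGRT, the neonatal Fc receptor heavy chain that also pairs with B2M, was the 1 at an unadjusted p under 0.05 (4.9% of all genes lower), with 0.77 and 5.57 TPM in the shNC libraries and 0.45 and 0.18 TPM in the shTPX2 libraries. A log2 difference of −3.17 (adjusted p = 0.579 from edgeR) for FCGRT was −1.17 without shNC 2, and the counts behind it were 13, 94, 8 and 3. The median of the class I-like molecules was 0.00 without shNC 2 and −0.13 without shTPX2 2.

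Peptide loading and trimming genes, all 16 tested, had a median log2 fold change of 0.13, with 2 higher at an unadjusted p under 0.05 (3.13% of all genes). These were THOP1, a cytosolic peptidase that degrades peptides (27.3 and 27.02 TPM against 36.1 and 39.4 TPM, log2 fold change 0.60), and SEC61A1, a subunit of the endoplasmic reticulum translocon (0.46, and 0.30 without shNC 2). The trimming peptidases ERAP1 and ERAP2 had values of −0.15 and −0.16, the chaperones CALR, CANX and PDIA3 values of 0.22, 0.10 and −0.10, and the tapasin-related TAPBPL 0.33. None of these 6 had an unadjusted p under 0.05. Genes of class I turnover, 11 of 13 tested, had a median of 0.10 and none passed that threshold.

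Transcription regulators of class I genes, all 20 tested, had a median of 0.10, and 2 were higher at an unadjusted p under 0.05 (3.13% of all genes). These were EZH2, a histone methyltransferase of the Polycomb group (33.6 and 32.4 TPM against 46.9 and 42.4 TPM, log2 fold change 0.52, standard error 0.16), and DNMT1, the maintenance DNA methyltransferase (56 and 58.4 TPM against 73.1 and 67.1 TPM, log2 fold change 0.42). The adjusted p from edgeR was 0.579 for EZH2 and 0.619 for DNMT1. The unadjusted p of DNMT1 was 0.0692 in edgeR with library size only and 0.0580 in limma voom with quantile normalization, while EZH2 stayed under 0.05 in both. With 1 library left out the log2 fold change ran from 0.43 to 0.61 for EZH2 and from 0.34 to 0.50 for DNMT1. NLRC5, the class I transactivator, measured 7.01 and 7.61 TPM in the shNC libraries and 5.56 and 11.3 TPM in shTPX2, and IRF1 18.5 and 29.06 TPM against 24.2 and 20.6 TPM, so neither separated the groups. NLRC5 was highest in shTPX2 2, not in shNC 2, and IRF1 was highest in shNC 2.

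Of the interferon receptors and signalling genes, all 16 tested, 1 was lower and 0 higher at an unadjusted p under 0.05 (4.9% and 3.13% of all genes). It was JAK2, a kinase of the interferon-gamma receptor, with 1.08 and 1.57 TPM in the shNC libraries and 0.47 and 0.40 TPM in shTPX2 (log2 fold change −1.41, standard error 0.42, adjusted p = 0.579 from edgeR). JAK1 (0.05), IFNGR1 (0.16) and IFNGR2 (0.25) had small log2 fold changes, with intervals that include 0. Of 8 interferon genes listed, 6 were in the table and 0 had enough counts for a test. Of 50 interferon-stimulated genes listed, 44 were tested, and their median difference between shNC 2 and shNC 1 was −0.12, whereas that of HLA-B, HLA-C, HLA-E and B2M was 1.20. Between shTPX2 2 and shTPX2 1 the medians were 0.49 and 0.79. Over all 9 members the medians were 0.74 (shNC) and 0.39 (shTPX2).

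The mean profile of the 9 members, as log2 CPM centred on the 4 libraries, was −0.38 and 0.49 in the libraries shNC 1 and 2 and −0.22 and 0.11 in shTPX2 1 and 2. Members differed from it by a Euclidean distance of 0.147 (TAP1) to 1.44 (HLA-B). Among 8717 other genes with a mean of at least 10 TPM, the nearest profiles were those of TTYH1 (distance 0.0704), SELENOK (0.0736), NDE1 (0.0825), DLG4 (0.0861) and CRYL1 (0.109). SELENOK, for instance, measured 15.1 and 27.3 TPM in the shNC libraries and 15.8 and 19.4 TPM in shTPX2. With 4 libraries many genes can come this near, and all 5 had an unadjusted p over 0.05 between the groups.

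The deposited table also gives a TPM average per group, which the authors computed. For the members these averages were not the means of the listed libraries. The authors' averages for HLA-B were 358 TPM (shNC) and 399 TPM (shTPX2), against 253 and 94.6 TPM from the 2 listed libraries, so the direction was opposite. For PSMB9 they were 55.4 and 69.6 TPM against 37.6 and 35.96 TPM, and for TAP1 48.03 and 50.2 TPM against 43.5 and 34.2 TPM, again with opposite directions. For B2M they were 1299.5 and 1209.5 TPM, and for HLA-C 586 and 482 TPM, both lower in shTPX2 as in the listed libraries. In shTPX2 the authors' average lay outside the range of the 2 listed libraries for HLA-B, TAP1, TAP2, TAPBP, PSMB8 and PSMB9. No SD or n goes with these averages, and they entered no test.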

How the data were processed

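Poly(A) RNA of 2 shNC and 2 shTPX2 libraries of PC9 cells was analysed. By the study's methods, SOAPnuke filtered the reads, HISAT2/Bowtie2 mapped them and RSEM or StringTie gave the expression values, while the submitters' processing notes name GRCh38, HISAT2, featureCounts and DESeq2, and versions and strand setting are not given in the sources used here. The authors deposited expected counts per gene (estimates that need not be whole, not normalized), FPKM values and TPM values, and group averages of each. The averages matched the mean of the 2 listed libraries within 0.02 TPM for 78 (shNC) and 57 (shTPX2) of 12841 genes with averages of at least 1 TPM. Multiplied by 3 (shNC) and 4 (shTPX2), less the listed libraries, they left 0 genes negative. This does not settle how many libraries were averaged, and whatever else entered the averages is not analysed here.

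Expected counts were rounded, and genes were kept by filterByExpr (14048 of 18134). The main test was edgeR 4.0.16 quasi-likelihood with TMM factors in R 4.3.3, with Benjamini-Hochberg adjustment across the 14048 genes, beside limma 3.58.1 voom at the study's criteria and DESeq2 1.42.0. The tests were checked on simulated counts. The common dispersion was 0.0485, so the spread between libraries, more than counting, limits the precision. Levels between genes were compared in TPM. Log2 CPM used a prior count of 2. Alternatives were other scalings, tests, pseudocounts of 1 and 0.1 on TPM, filters, the replicate number as a block, and leaving out each library. The members and gene lists were chosen with earlier results of these data known, and list genes were named from a set of known roles or for an unadjusted p under 0.05, beside the 5 genes nearest in profile. Promoter windows came from RefSeq (GRCh38.p14). Some genes of the lists are not reported here by name.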

Additional observations from a re-analysis of the deposited data

How the results depend on the processing

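Leaving out 1 library at a time, where a lone library was assumed to vary like the other group, the log2 fold change ran from −2.05 to 0.47 for HLA-B, −0.51 to 0.40 for HLA-C, −0.65 to 0.20 for HLA-E, −0.86 to 0.65 for B2M, −0.52 to 0.19 for TAP1, −0.038 to 0.48 for TAP2, −0.15 to 0.060 for TAPBP and −0.26 to 0.48 for PSMB9. In the same fits the median of the 9 members ran from −0.47 to 0.39, the members lower at an unadjusted p under 0.05 from 0 to 4, and those at the study's criteria from 0 to 1 higher and 0 to 4 lower. The 4 came without shNC 1 (HLA-B, HLA-E, B2M and TAP1), where 7.88% of all genes were lower at that p and 13.2% at the study's criteria, and the 1 higher was TAP2 without shTPX2 2 (3.61% of all genes). PSMB9 was −0.017 with library size only, −0.014 with log2(TPM + 1) and −0.013 with log2(TPM + 0.1), where the cause was not tested. The other scalings, tests and filters kept the direction of the other 8 members and the count of 0 members at an adjusted p under 0.05. The TPM scales moved the median of all genes to −0.10 and −0.12. Over all genes, 0 passed an adjusted p under 0.05 in edgeR, 111 in DESeq2, 22 without shNC 1 and 11 without shNC 2. The log2 difference of the PSMB9 over PSMB6 ratio ran from −0.64 to 0.21 with 1 library left out, within the spread between libraries, as did the other subunit ratios. With 2 libraries a group, the spread between them and not the depth of about even totals limits these values.

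The numbers 1 and 2 are not stated to mark a shared culture or day, and with 2 pairs the data cannot settle it. Across 14048 genes, the differences between library 2 and library 1 in the groups correlated at r = 0.18, genes not being independent replicates. With the replicate number as a block, HLA-B (log2 fold change −0.87, adjusted p = 0.544 from edgeR) alone met the study's criteria, 1 member lower (9.7% of all genes) and 0 higher, and 0 of 9 passed an adjusted p under 0.05. Over all genes the block gave 583 higher and 770 lower at an unadjusted p under 0.05, against 440 and 688 without it.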

Other observations

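MHC class II genes, which present peptides to CD4 T cells and which epithelial cells make in small amounts, were at low levels. Of 13 listed genes 5 were tested, and 3 were lower in shTPX2 at an unadjusted p under 0.05 (4.9% of all genes lower). These genes and those below were named after their values were seen. HLA-DRB1 measured 1.68 and 5.2 TPM in the shNC libraries and 0.38 and 0.16 TPM in shTPX2, HLA-DQB1 2.3 and 10.5 TPM against 0.78 and 0.70 TPM, and HLA-DOB 2.9 and 7.85 TPM against 1.74 and 1.89 TPM. All 3 had both shTPX2 libraries below both controls. On the log2 CPM scale the groups did not overlap, in either direction, in 39.6% of all genes. The adjusted p from edgeR was 0.470 for HLA-DRB1 and 0.579 for HLA-DQB1, while DESeq2 called HLA-DQB1 at an adjusted p of 0.0234. Without shNC 2 the log2 fold changes shrank from −3.48 to −2.49 for HLA-DRB1, from −2.96 to −1.53 for HLA-DQB1 and from −1.43 to −0.58 for HLA-DOB. The counts were few, with 21, 64.4, 5 and 2 for HLA-DRB1 in shNC 1, shNC 2, shTPX2 1 and shTPX2 2. HLA-DRA, the obligate partner of HLA-DRB1, was listed at 0 in every library, and reads of related class II genes may be shared among them.

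CD274, which encodes PD-L1, the ligand of the T-cell checkpoint receptor PD-1, measured 1.63 and 2.08 TPM in the shNC libraries and 0.75 and 0.43 TPM in shTPX2 (log2 fold change −1.21, adjusted p = 0.597 from edgeR), the 1 of 9 checkpoint ligands at an unadjusted p under 0.05 (4.9% of all genes lower). The unadjusted p of CD274 was 0.0819 in DESeq2, 0.0805 with quantile normalization, and 0.0590 to 0.185 in edgeR with 1 library left out. Among the 44 interferon-stimulated genes, 2 were higher (OAS3 and IFI35) and 3 lower (GBP1, IFITM2 and HERC5) at that threshold (3.13% higher and 4.9% lower over all genes). IFITM2, a membrane protein that restricts viral entry, measured 49.2 and 54.3 TPM in the shNC libraries and 23.1 and 12.4 TPM in shTPX2, with an adjusted p of 0.567 from edgeR and 0.0363 from DESeq2.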
